A study of Ovis aries with 6 samples.

Results

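The insulin-like growth factor (IGF) system of the sheep ovary was examined through its binding proteins (IGFBP), its receptors and the protease PAPPA. Members were found by gene symbol in the deposited gene table. Of the 10 symbols sought, 8 were listed (IGFBP3, IGFBP4, IGFBP5, IGFBP6, IGFBP7, IGF1R, IGF2R and PAPPA), among 14480 gene rows of which 10189 carried a symbol. IGFBP2 and IGF2 have no row under their symbols and so no value here. The study profiled polyadenylated RNA of the ovary (Ovis aries) taken during estrus, with 3 libraries of Hu sheep and 3 of Mongolian sheep. Hu ewes commonly bear large litters, whereas a single lamb is usual for Mongolian ewes. The labels name no treatment, age or genotype beyond breed, and they do not say whether replicates are separate animals, so p-values measure only the spread between these libraries. The series title speaks of exosomes, whereas every sample is labelled ovary.

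IGF1 and IGF2 are growth factors that act mainly through IGF1R, a receptor tyrosine kinase at the cell surface. IGFBPs bind the ligands outside the cell and hold them away from the receptor. PAPPA is a secreted metalloproteinase that frees IGF by cutting IGFBP4 and some other binding proteins. In ovarian follicles, IGF acts together with follicle-stimulating hormone on granulosa cells, and cleavage of IGFBP4 is a known feature of follicles selected to ovulate. IGF2R, also the cation-independent mannose 6-phosphate receptor, takes up IGF2 for breakdown in lysosomes and carries lysosomal enzymes.

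Levels are given as FPKM (fragments per kilobase of transcript scaled to the library total), so levels of different genes can be set side by side. Read counts were not used here, and the depth behind each value is unknown. Hu 1 and Hu 2 listed 6500 and 7971 genes above 0 FPKM, Hu 3 listed 13342, and the Mongolian libraries listed between 10547 and 11463. A value of 0 is therefore described as listed at 0 and not as absence. Stromal markers fixed for this work summed to between 909 and 1161 FPKM per library (10 of 13 listed) and smooth muscle and pericyte markers to between 562 and 1412 (10 of 10). Granulosa markers summed to between 55.2 and 279 FPKM (9 of 14), theca markers to between 27.3 and 122 (9 of 10) and luteal markers to between 35.5 and 511 (9 of 10). Endothelial markers summed to between 9.26 and 32.0 FPKM (11 of 12), macrophage markers to between 7.04 and 73.9 (8 of 10), and surface epithelium markers to between 0.77 and 38.8 (7 of 11). Lymphocyte markers reached 4.38 FPKM at most (4 of 9), oocyte markers 1.29 (3 of 11) and red blood cell markers 5.94 (1 of 6). The granulosa markers FOXL2, AMH and CYP19A1 were not listed by symbol. In bulk ovary RNA, fewer cells of a type and less RNA per cell cannot be told apart.

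Among the binding proteins, IGFBP5 and IGFBP4 had the highest levels in every library. IGFBP5, which binds extracellular matrix as well as IGF, stood at 94.4, 161 and 209 FPKM in Hu 1, 2 and 3 and at 205, 129.98 and 204 in Mongolian 1, 2 and 3 (values follow replicates 1, 2 and 3 throughout). Hu 1 was the lowest library and Hu 3 the highest, so the Mongolian values lay inside the Hu range. IGFBP4, a binding protein that restrains IGF action and the main substrate of PAPPA, stood at 119, 93.1 and 156 FPKM in the Mongolian libraries and at 65.6, 139.8 and 166 in the Hu libraries. Hu 1 was again the lowest library and Hu 3 the highest. The FPKM of all rows with a symbol also summed lowest in Hu 1 (53045) and highest in Hu 3 (133674), and to between 68402 and 82410 in the others. Over all rows, with or without a symbol, Hu 1 was again lowest (353423). Hu 3 (449904) then lay below the Mongolian libraries (491582 to 565721). The part of library scale in the order of libraries for IGFBP5 and IGFBP4 was not tested. Among the 10141 distinct symbols, IGFBP5 ranked between place 44 and place 91 by FPKM in every library, and IGFBP4 between place 66 and place 118.

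The next level was held by IGFBP7 and IGFBP6. IGFBP7, a secreted protein of vessel walls and stroma with low affinity for IGF, stood at 35.8, 79.9 and 32.5 FPKM in the Mongolian libraries and at 29.6, 37.1 and 42.0 in the Hu libraries. Mongolian 2 stood apart as the highest library, and the other 5 lay between 29.6 and 42.0. In Mongolian 2 the macrophage markers also had their highest sum, 73.9 FPKM, against 7.04 to 31.8 in the other 5 libraries. Endothelial markers summed to 17.9 FPKM there, against 9.26 and 11.4 in the other Mongolian libraries and 17.2 to 32.0 in Hu. Stromal markers summed to 972 FPKM there, against 1021 and 909 in the other Mongolian libraries and 971 to 1161 in Hu. Smooth muscle and pericyte markers summed to 702 FPKM there, against 881 and 847 in the other Mongolian libraries and 562 to 1412 in Hu. The part of these cell types in the IGFBP7 value was not tested. IGFBP6, a binding protein that prefers IGF2 over IGF1, stood at 16.7, 7.86 and 23.9 FPKM in the Mongolian libraries and at 21.5, 22.3 and 29.5 in the Hu libraries. Hu 3 was the highest library and Mongolian 2 the lowest, and the breeds overlapped through Mongolian 3.

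On the log2(FPKM + 1) scale IGFBP3 varied most between libraries among the 8 members. IGFBP3, the main carrier of IGF in blood, where it forms a ternary complex with the acid-labile subunit, was listed at 0 in Hu 1 and Hu 2 and stood at 18.3 FPKM in Hu 3. In Mongolian it stood at 11.4, 22.0 and 53.4 FPKM. The 2 Hu libraries at 0 lay below every Mongolian library, and Hu 3 lay between Mongolian 1 and Mongolian 2, so the breeds overlapped.

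The receptors were low and close to each other. IGF1R stood at 8.89, 4.47 and 14.5 FPKM in the Mongolian libraries and at 5.71, 5.99 and 2.80 in the Hu libraries. Hu 3 was the lowest library and Mongolian 3 the highest, with Mongolian 2 below 2 of the 3 Hu values. IGF2R stood at 4.70, 5.94 and 6.97 FPKM in the Mongolian libraries and at 6.34, 6.27 and 5.22 in the Hu libraries. Its 6 values formed a single narrow range, with the smallest SD relative to the mean of the 8 members in both breeds. The ratio of IGF1R to IGF2R was 0.90, 0.95 and 0.54 in Hu and 1.89, 0.75 and 2.08 in Mongolian. IGF1R was the higher of the pair only in Mongolian 1 and Mongolian 3.

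PAPPA was the lowest member and was listed in 3 of 6 libraries. It stood at 0, 0 and 4.75 FPKM in the Mongolian libraries and at 0.99, 0 and 0.72 in the Hu libraries. Mongolian 3 alone exceeded 1 FPKM, and it was also the highest library for IGFBP3, IGF1R and IGF2R. Luteal markers summed to 511 FPKM in Mongolian 3, against 36.4 and 35.5 in the other Mongolian libraries and 92.6 to 314 in Hu, and most of that sum was oxytocin (OXT) at 305 FPKM. The steroidogenic enzyme HSD3B1, on the luteal and theca lists, stood at 41.3 FPKM there and at 11.2 or less in the other 5 libraries. Granulosa markers summed to 142 FPKM there, against 96.2 and 73.5 in the other Mongolian libraries and 55.2 to 279 in Hu. Theca markers summed to 115 FPKM in Mongolian 3, against 36.4 and 31.2 in the other Mongolian libraries and 27.3 to 122 in Hu. Surface epithelium markers summed to 38.8 FPKM in Mongolian 3, against 0.77 to 21.5 in the other 5. The part of these cell types in the PAPPA and IGFBP3 values was not tested. Where PAPPA was listed, IGFBP4 exceeded it by a ratio of 66.2 in Hu 1, 231 in Hu 3 and 32.8 in Mongolian 3.

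**Figure D1:**
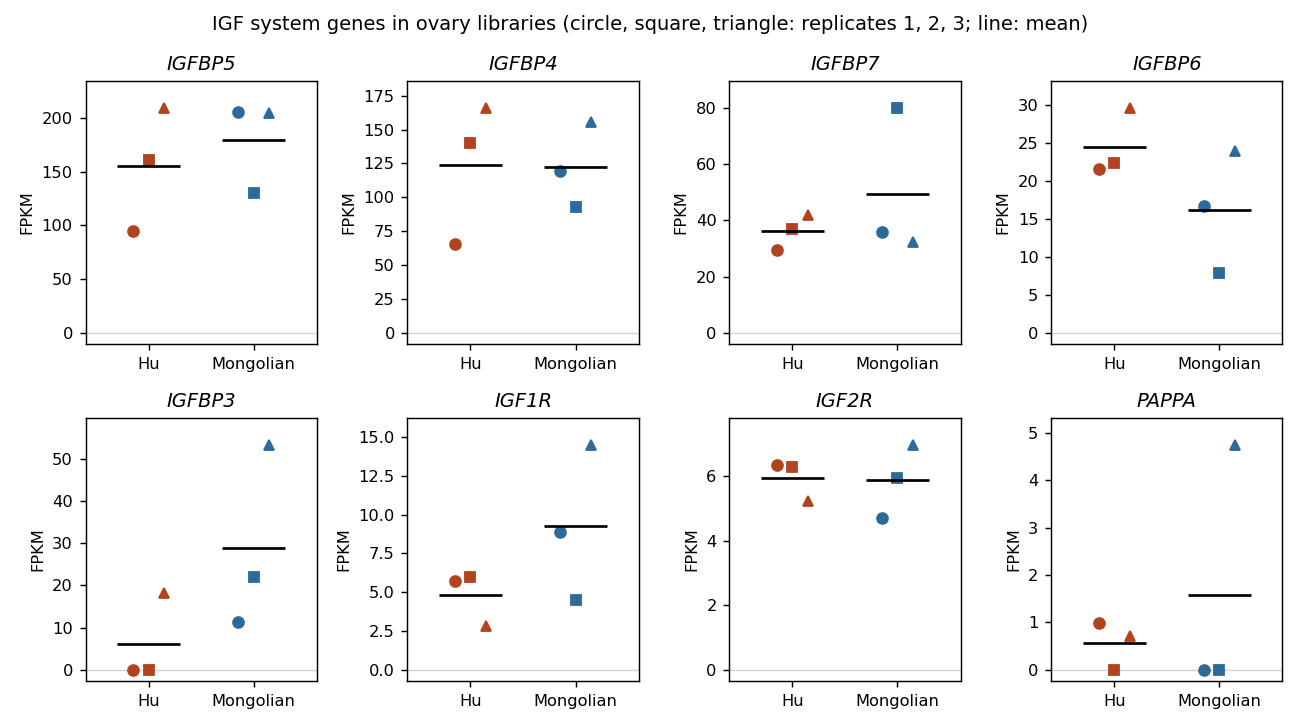
FPKM (vertical axis, linear, a scale of its own in each panel) of the 8 listed genes in the 3 Hu and 3 Mongolian libraries; each point is a library and each line a breed mean. IGFBP3 is at 0 in Hu 1 and Hu 2, and PAPPA exceeds 1 FPKM only in Mongolian 3.

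By mean FPKM over all 6 libraries the order was IGFBP5 (167), IGFBP4 (123), IGFBP7 (42.8), IGFBP6 (20.3), IGFBP3 (17.5), IGF1R (7.06), IGF2R (5.91) and PAPPA (1.08). Each neighbouring pair was compared within libraries on log2(FPKM + 1) by a two-sided exact sign-flip permutation test over the 6 libraries, adjusted by Benjamini-Hochberg over the 7 pairs. IGFBP5 exceeded IGFBP4 in 6 of 6 libraries, by 0.45 ± 0.20 (mean ± SD) on the log2 scale. IGFBP4 exceeded IGFBP7 in 6 of 6 by 1.52 ± 0.74, IGFBP7 exceeded IGFBP6 in 6 of 6 by 1.05 ± 1.08, and IGF2R exceeded PAPPA in 6 of 6 by 2.06 ± 0.89. These 4 pairs had the smallest p that 6 libraries allow (exact p = 0.0312), which became 0.0547 after adjustment. With 4 pairs at that smallest p the adjustment over 7 cannot go lower, so a missing call does not show that these pairs are alike. IGFBP6 and IGFBP3 did not differ beyond their spread (1.28 ± 2.64, higher in 4 of 6, exact p = 0.375), nor did IGFBP3 and IGF1R (0.17 ± 2.38, exact p = 0.969) or IGF1R and IGF2R (0.09 ± 0.66, exact p = 0.812).

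Shares within the summed binding proteins do not depend on a library's total. The FPKM of IGFBP3 to IGFBP7 summed to 211, 360.2 and 465 in Hu and to 389, 333 and 469.6 in Mongolian. IGFBP5 made up 44.7%, 44.7% and 45.0% of that sum in Hu and 52.8%, 39.0% and 43.5% in Mongolian. Its share was nearly the same in the 3 Hu libraries, although its level differed by more than a factor of 2 between Hu 1 and Hu 3. IGFBP4 made up 31.1%, 38.8% and 35.7% in Hu and 30.7%, 28.0% and 33.2% in Mongolian. IGFBP6 made up 10.2%, 6.19% and 6.36% in Hu and 4.29%, 2.36% and 5.10% in Mongolian. All 3 Hu shares of IGFBP6 lay above all 3 Mongolian shares, and a two-sided exact permutation test gave p = 0.1, the smallest that 3 against 3 libraries allow (0.333 adjusted over the 5 shares). IGFBP7 made up 9.03% to 14.0% in Hu, and in Mongolian 9.21%, 24.0% and 6.92%. IGFBP3 made up 0%, 0% and 3.93% in Hu and 2.93%, 6.62% and 11.4% in Mongolian.

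**Figure D2:**
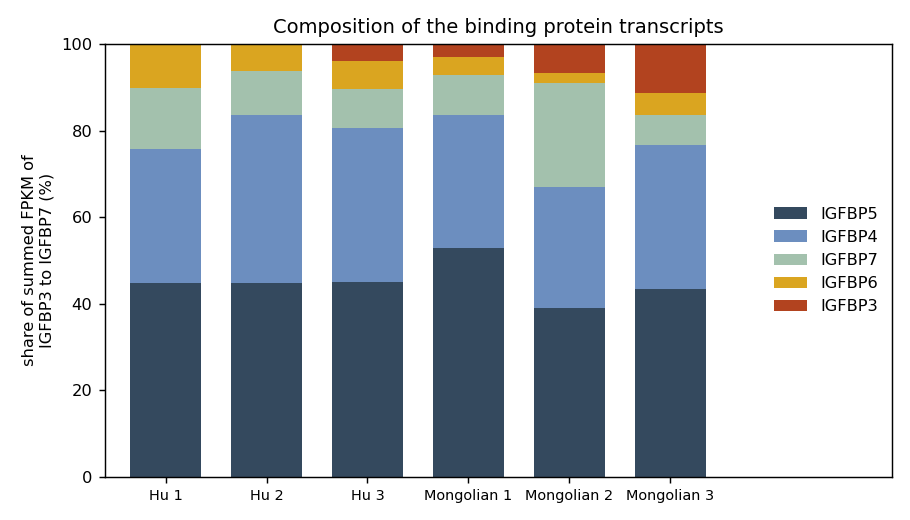
Share of each binding protein in the summed FPKM of IGFBP3 to IGFBP7 (vertical axis, percent) in each of the 6 libraries (bars). IGFBP4 and IGFBP5 together take between 67.0% and 83.6% of the sum, and IGFBP3 has no share in Hu 1 and Hu 2.

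The design compares breeds of high and low litter size. All 8 members were abundant enough to test (at least 0.5 FPKM in at least 3 libraries), as were 9971 genes in all. The limma test on log2(FPKM + 1) called 0 of the 8 members and 0.0% of all genes tested (Benjamini-Hochberg adjusted p under 0.05). At an unadjusted limma p under 0.05 it gave 1 of the 8 members, IGFBP3, beside 3.73% of all genes. All differences are Hu minus Mongolian. Of the 8 members 6 had a negative log2 difference, beside 67.7% of all genes tested, and their median was -0.25, beside -0.28 for all genes. The number with a negative difference was 5 under median-of-ratios scaling or quantile normalization and ranged from 4 to 7 with a library left out. The median of all genes itself was 0.01 without Hu 1 and -0.66 without Hu 3. That of the members was -0.11 and -0.39 in those fits, and -0.013 without Mongolian 3. No member had all Hu values above or all below the Mongolian values, beside 1.88% and 6.05% of all genes tested. The median of all genes was -0.23 when libraries were scaled by median of ratios, -0.10 when they were quantile normalized and -0.32 when rescaled to the sum of rows with a symbol.

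The log2 difference of IGFBP3, whose Hu values include 2 listed at 0, was -3.22 with a standard error of 0.98 and an unadjusted 95% confidence interval from -5.31 to -1.13. The unadjusted limma p was 0.00493, place 27 among the 9971 genes, and the adjusted p was 0.998. A two-sided exact permutation test of its 6 values gave p = 0.2, where 0.1 is the smallest possible. Weighting libraries by their estimated quality gave -4.08 with a limma adjusted p of 0.0057. That fit called 633 of the 9971 genes tested, where the fit without weights called 0. It put a weight of 3.64 on Hu 2, where IGFBP3 was listed at 0, whereas Hu 1 had 0.41 and Hu 3 had 0.25. The difference was -2.51 without Hu 1 or without Hu 2, and -4.64 without Hu 3; limma did not call the gene in these fits.

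Zeros in Hu were then counted among genes above a floor in the Mongolian libraries. Of the 1156 genes with at least 10 FPKM in every Mongolian library, 61 (5.28%) were listed at 0 in Hu 1, 22 (1.90%) in Hu 2 and 10 (0.865%) in both, IGFBP3 among them. All 10 were above 0 in Hu 3. Over all genes tested, 17.0% were listed at 0 in both Hu 1 and Hu 2, the libraries with the fewest listed genes. With listed genes per library as a covariate the IGFBP3 difference was -2.17. This subset of genes was chosen after the IGFBP3 values were seen. Its floor lies just under the lowest Mongolian value of IGFBP3 (11.4 FPKM), and it has no upper limit. The 0.865% is therefore not a rate for genes at the level of IGFBP3.

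For the other members the confidence intervals of the log2 difference all included 0. IGFBP6 averaged 16.2 ± 8.06 FPKM in the Mongolian libraries and 24.5 ± 4.42 in the Hu libraries (SD over 3 libraries each, as below), and the difference was 0.68 (95% confidence interval from -0.49 to 1.84, limma adjusted p = 0.998). IGF1R averaged 9.29 ± 5.03 FPKM in the Mongolian libraries and 4.83 ± 1.76 in the Hu libraries, and the difference was -0.74 (interval from -2.13 to 0.64). Both kept their sign under every scaling and with each library left out, but the difference of IGFBP6 was 0.26 without Mongolian 2. That of IGF1R was -0.39 without Mongolian 3, -0.46 without Hu 3 and -1.14 without Mongolian 2. IGFBP7 averaged 49.4 ± 26.5 FPKM in the Mongolian libraries and 36.2 ± 6.23 in the Hu libraries, and the difference of -0.33 (interval from -1.40 to 0.74) was 0.07 without Mongolian 2. IGFBP5 averaged 179.8 ± 43.2 FPKM in the Mongolian libraries and 154.9 ± 57.6 in the Hu libraries, and the difference of -0.26 (interval from -1.25 to 0.74) was 0.06 without Hu 1.

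IGFBP4, IGF2R and PAPPA had no stable direction. IGFBP4 averaged 123 ± 31.5 FPKM in the Mongolian libraries and 124 ± 52.0 in the Hu libraries, and its log2 difference of -0.06 (interval from -1.09 to 0.97) turned to 0.11 under median-of-ratios scaling. IGF2R averaged 5.87 ± 1.14 FPKM in the Mongolian libraries and 5.94 ± 0.63 in the Hu libraries, and the difference was 0.02 (interval from -1.27 to 1.32). PAPPA, listed at 0 in 3 libraries, had a difference of -0.25 (interval from -1.71 to 1.21), which was 0.0014 after quantile normalization and 0.59 without Mongolian 3. For IGF2R and PAPPA the intervals reached past a log2 unit in both directions, so a missing call does not show that the breeds are alike.

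**Figure D3:**
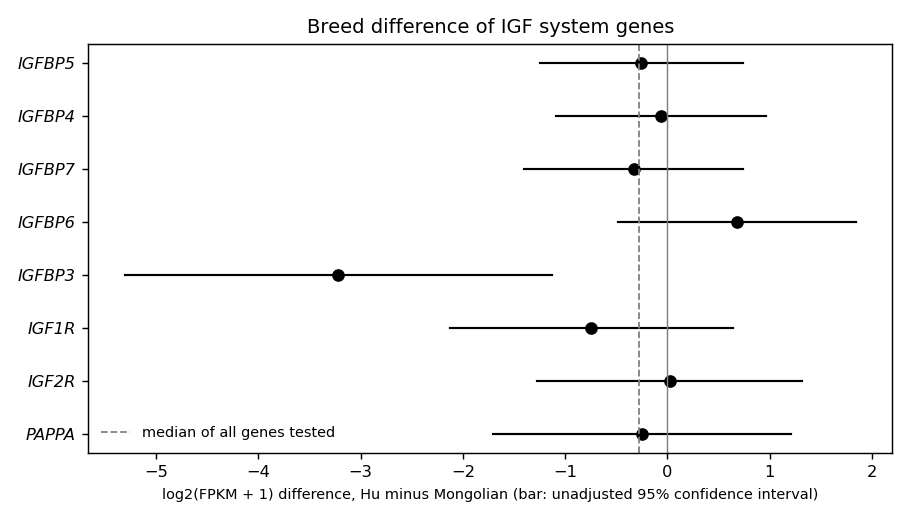
Log2(FPKM + 1) difference, Hu minus Mongolian (horizontal axis), of each gene; bars are unadjusted 95% confidence intervals from limma and the dashed line is the median of all genes tested. IGFBP3 is the only gene whose interval leaves out 0, and its adjusted p is 0.998.

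**Figure D4:**
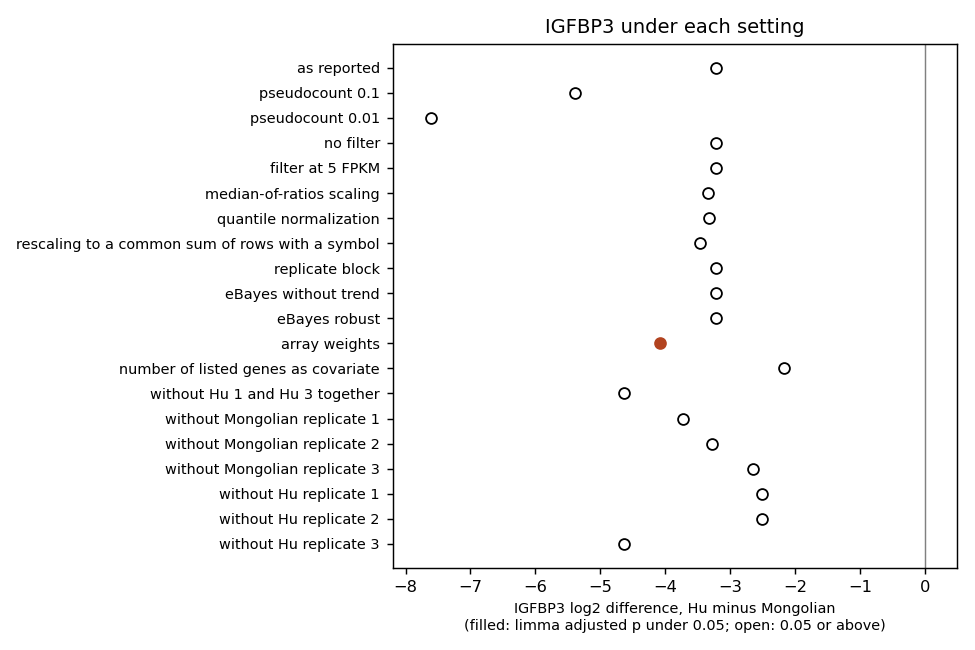
Log2 difference of IGFBP3 (horizontal axis) under each setting of the fit (vertical axis); the filled point has a limma adjusted p under 0.05. All points lie below 0, between -7.60 with a pseudocount of 0.01 and -2.17 with listed genes per library as a covariate. Only library weights give a call, in a fit that calls 633 of the 9971 genes tested.

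Genes around the members were then examined by lists. Of the proteases that cut IGFBPs and their inhibitors, 10 of 17 were listed and 7 tested; limma called 0, 5 differences were positive and 2 negative, and the median was 0.46, beside -0.28 for all genes. PAPPA belongs to this list, and IGF1R and IGF2R to the next. The median of the proteases and inhibitors was above 0 under each of the 3 other scalings and with each library left out. HTRA1, a secreted serine protease that cuts matrix proteins and IGFBPs, stood at 15.4, 29.5 and 8.67 FPKM in the Mongolian libraries and at 23.8, 49.3 and 59.9 in the Hu libraries. Hu 2 and Hu 3 lay above every Mongolian library, and the log2 difference was 1.32 (95% confidence interval from 0.11 to 2.54, limma adjusted p = 0.998). TIMP1, an inhibitor of metalloproteinases, stood at 24.3, 16.7 and 149 FPKM in the Mongolian libraries and at 44.0, 70.2 and 173 in the Hu libraries, with Mongolian 3 and Hu 3 apart from the rest. STC1, a stanniocalcin and inhibitor of PAPPA, was listed only in Mongolian 3, at 1.35 FPKM, the library in which PAPPA was highest. The protease PAPPA2 and the stanniocalcin STC2 were not listed by symbol.

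Of the insulin and IGF receptors and their adaptors, 14 of 17 were listed and tested, and limma called 0. Over all genes tested, 67.7% of differences were negative and the median was -0.28. In this list 5 differences were positive and 9 negative, and the median was -0.425. That median was -0.16 with 7 on each side after quantile normalization, -0.13 without Hu 1 (all genes 0.01) and -0.47 with 2 positive and 12 negative without Hu 3 (all genes -0.66). INSR, the insulin receptor and closest relative of IGF1R, stood at 7.45, 6.65 and 16.7 FPKM in the Mongolian libraries and at 2.25, 4.77 and 6.76 in the Hu libraries. Its breeds overlapped only where Hu 3 exceeded Mongolian 2, and the log2 difference was -0.99 (95% confidence interval from -2.38 to 0.39), or -0.61 without Mongolian 3 and -0.65 without Hu 1. Mongolian 3 was the highest library for INSR as it was for IGF1R. SHC1, an adaptor that couples these receptors to RAS, stood at 16.1, 19.3 and 25.4 FPKM in the Mongolian libraries and at 4.51, 14.4 and 19.6 in the Hu libraries, and its log2 difference of -0.80 was -0.24 without Hu 1.

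In the PI3K-AKT branch downstream of the receptors, 20 of 22 genes were listed and tested, and limma called 0. Beside 67.7% negative and a median of -0.28 for all genes, 6 differences were positive and 14 negative, and the list median was -0.355. Without Hu 1 that median was 0.05 (12 positive and 8 negative, all genes 0.01), and without Hu 3 it was -0.79 (3 positive and 17 negative, all genes -0.66). RPTOR, the scaffold of mTOR complex 1, was listed at 0 in Hu 1 and Hu 2 and at 1.28 FPKM in Hu 3, and stood at 1.26, 1.87 and 3.32 in Mongolian. RHEB, the GTPase that activates mTOR complex 1, stood at 21.2, 18.6 and 6.27 FPKM in the Mongolian libraries and at 16.9, 24.3 and 72.2 in the Hu libraries, and its log2 difference was 1.13 (95% confidence interval from -0.22 to 2.48). It was 0.54 without Hu 3, 0.62 without Mongolian 3 and 0.58 with library weights. These 2 partners of mTOR thus had differences of opposite sign, and neither passed the test.

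The remaining lists gave 0 calls as well. Of the growth hormone axis 7 of 8 genes were listed and 6 tested, with 1 positive and 5 negative differences. Beside -0.28 for all genes, the list median was -0.265. That median was 0.36 without Hu 1 (all genes 0.01) and -0.87 without Hu 3 (all genes -0.66). SOCS2, which restrains growth hormone receptor signalling, stood at 3.92, 0.73 and 8.39 FPKM in the Mongolian libraries and at 0, 0 and 2.44 in the Hu libraries; STAT5A, a transcription factor that this receptor activates, stood at 3.48, 3.49 and 6.72 FPKM in the Mongolian libraries and at 3.36, 0.64 and 8.96 in the Hu libraries. SOCS2 shared with IGFBP3 and RPTOR the listing at 0 in Hu 1 and Hu 2, as did 17.0% of all genes tested. Of the CCN and other proteins with an IGFBP-like domain 4 of 15 were listed and tested, all with positive differences and a median of 0.18. With median-of-ratios scaling or rescaling to the sum of rows with a symbol 3 of the 4 were positive, and without Hu 3 the count was 1 and the median -0.43. CRIM1, a membrane protein with such a domain, stood at 2.58, 2.27 and 2.04 FPKM in the Mongolian libraries and at 2.81, 2.84 and 2.96 in the Hu libraries. All 3 Hu values of CRIM1 lay above the Mongolian values, beside 1.88% of all genes tested, but its log2 difference was 0.23 (95% confidence interval from -1.25 to 1.72). CCN1, a matricellular protein, stood at 12.1, 10.6 and 6.27 FPKM in the Mongolian libraries and at 3.80, 11.9 and 46.1 in the Hu libraries, and its difference of 0.47 was -0.40 without Hu 3.

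Of the mannose 6-phosphate pathway that IGF2R serves, 11 of 15 genes were listed and 10 tested, with 4 positive and 6 negative differences. Beside -0.28 for all genes, the list median was -0.23. That median was 0.09 after quantile normalization (all genes -0.10), 0.18 without Hu 1 (all genes 0.01) and -0.59 without Hu 3 (all genes -0.66). CTSB, a lysosomal protease, stood at 22.7, 70.1 and 30.4 FPKM in the Mongolian libraries and at 57.0, 89.7 and 64.4 in the Hu libraries, and its log2 difference was 0.90 (95% confidence interval from -0.20 to 1.995), or 0.57 without Mongolian 1 and 1.36 without Mongolian 2. LAMP1, a lysosomal membrane protein, stood at 40.7, 26.1 and 39.1 FPKM in the Mongolian libraries and at 14.4, 24.4 and 31.8 in the Hu libraries. Neither passed the test. Of the list of ligands and the ternary complex 1 of 7 was listed: the peptide hormone INSL3, at 13.7, 5.13 and 32.6 FPKM in the Mongolian libraries and at 26.8, 5.10 and 17.1 in the Hu libraries. IGF1, IGFALS and IGFBP1 were not listed by symbol, so the ligands themselves have no value here. Of the IGF2 mRNA-binding proteins 1 of 3 was listed, IGF2BP2, at 2.34 FPKM in Hu 3 and at 0 in the other 5 libraries.

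**Figure D5:**
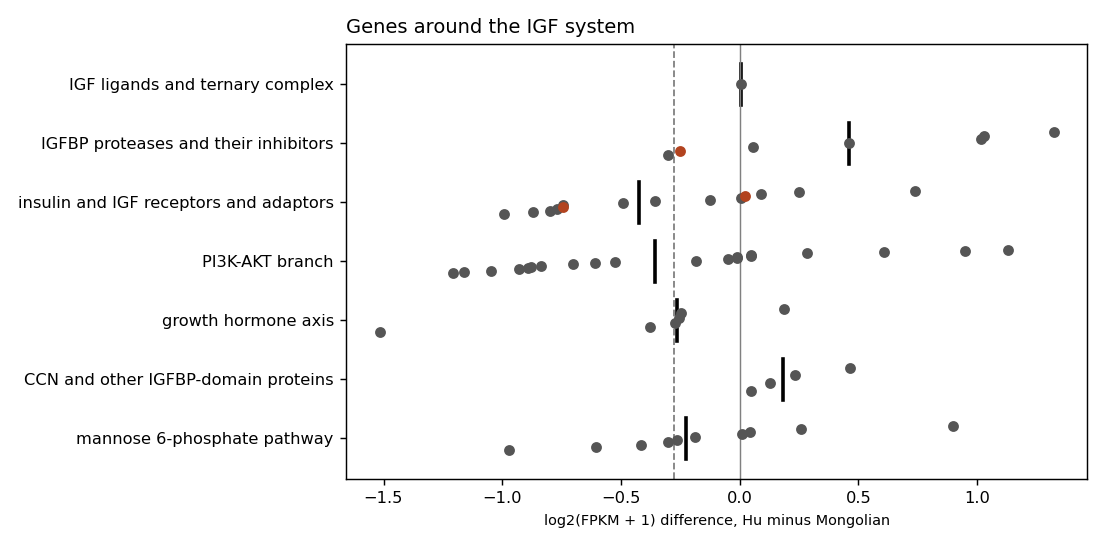
Log2(FPKM + 1) difference, Hu minus Mongolian (horizontal axis), of the tested genes of each list (points; members of the IGF set in red), with the median of each list (black line), 0 (solid grey line) and the median of all genes tested (dashed line). The offset of points within a list only separates them; list medians lie between -0.425 for receptors and adaptors and 0.46 for proteases.

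The genes closest in pattern were taken over 3821 genes above 0 in all 6 libraries, by the mean absolute gap between centred log2(FPKM + 1) profiles. For IGFBP3 these were TTLL12, a protein of the tubulin tyrosine ligase family (gap 1.01), ZNF277, a zinc finger protein (1.07), and WARS1, tryptophanyl-tRNA synthetase (1.10), where the median gap was 1.79. Genes with any 0 were outside this search, among them those that share the zeros of IGFBP3. Of these, LAMTOR4, CNBP, MXRA7 and UBE2H had smaller gaps, between 0.51 and 0.52, whereas HSPB1 had a larger gap than WARS1. These genes were picked for 0 in Hu 1 and Hu 2 and at least 10 FPKM in every Mongolian library, as in IGFBP3. That choice itself favours small gaps, so their gaps cannot be set against those of genes found by the search. TTLL12 stood at 8.57, 6.79 and 15.2 FPKM in the Mongolian libraries and at 0.75, 1.95 and 11.3 in the Hu libraries, low in the libraries where IGFBP3 was listed at 0. For PAPPA the 2 closest were SHARPIN, a subunit of the linear ubiquitin ligase (gap 0.26), and KNOP1, a nucleolar protein (0.27), where the median gap was 0.84. SHARPIN stood at 3.35 to 18.6 FPKM in the Mongolian libraries and at 7.49, 4.33 and 5.43 in the Hu libraries, highest in Mongolian 3 as PAPPA was. The likeness of SHARPIN to PAPPA and of TTLL12 to IGFBP3 follows from how these genes were chosen.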

How the data were processed

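The authors deposited a gene table of FPKM values, not counts, with a column per library. Columns were matched to samples by the codes in the sample descriptions. Libraries were made with a SMARTER mRNA kit, per the labels' protocols; aligner, counter and build: not given in the sources used here. A table of lncRNAs was not used. Low values held no shared steps: among genes under 2 FPKM at most 0.566% of ratios between libraries fell in a bin 0.2% wide, so reads were not recovered and precision rests on replicates alone. Genes reaching 0.5 FPKM in 3 or more libraries were tested with limma 3.58.1 in R 4.3.3 (trend, two-sided, breed only) on log2(FPKM + 1), a scale that understates changes of low genes. The fit was also run on simulated data, made by shuffling deviations from breed means within each gene. Changes were added only to genes above the median level. That run therefore does not cover shifts of a whole library or detection of changes in low genes. The row with the highest mean was used for a repeated symbol. Members and the 8 pathway and 11 marker lists were chosen with earlier results of these data known. Named genes are all members, the 2 of each pathway list with the smallest p, and the 3 closest in pattern to IGFBP3 and PAPPA, of which 1 is not reported here; OXT, HSD3B1, STC1, IGF2BP2 and the genes that share the zeros of IGFBP3 were named, and the test of shares added, after the values were seen. Alternatives covered pseudocount, filter, scaling, eBayes settings, library weights, a covariate, a replicate block and left-out libraries. No genome coordinates or sequences were used.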

Additional observations from a re-analysis of the deposited data

How the results depend on the processing

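Over all genes limma called 0, but 633 with library weights, 6 without Hu 1 and Hu 3 together and between 0 and 4 with a library left out; at an unadjusted p under 0.05 the count was 372 as reported. Of the members it called 1 with library weights (IGFBP3, -4.08, adjusted p = 0.0057, against a range from 0.0057 to 0.99997 over all its fits) and 0 with each library left out. IGFBP3, IGFBP6 and IGF1R kept their sign in every fit made. IGFBP4 turned to 0.11 with median-of-ratios scaling, 0.20 with library weights, 0.16 with listed genes per library as a covariate and 0.22 without Hu 1 and Hu 3. PAPPA turned to 0.29 and 1.31 with pseudocounts of 0.1 and 0.01 and to 0.0014 with quantile normalization. IGF2R turned to -0.032 with the covariate. INSL3 turned to -0.0011 with quantile normalization, -0.73 with weights, -0.037 with the covariate and -1.24 without Hu 1 and Hu 3, and STAT5A to 0.016 with the covariate. The cause was not tested. With a library left out the log2 differences ranged from -0.32 to 0.34 for IGFBP4, -0.51 to 0.060 for IGFBP5, -0.57 to 0.071 for IGFBP7, -0.10 to 0.14 for IGF2R, -0.67 to 0.59 for PAPPA, -0.61 to 0.63 for INSL3, -1.01 to 0.29 for STAT5A, -0.40 to 1.25 for CCN1, -0.78 to 0.31 for SHARPIN and -0.97 to 0.094 for KNOP1. PAPPA was not tested at a filter of 5 FPKM, and IGFBP3 and PAPPA not over genes above 0 in all libraries. With the replicate number as a block limma called 0 genes and 0 members, and the IGFBP3 difference stayed at -3.22; same-numbered libraries did not deviate together (correlations of -0.01, -0.03 and -0.18), and none of the 3 Hu libraries correlated best with its own number. Without Hu 1 and Hu 3 the lone Hu library is assumed to vary like the Mongolian ones. Depth is unknown, so differences among low genes such as PAPPA may not be detectable here.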

Other observations

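IGFBP3 shared its listing at 0 in Hu 1 and Hu 2, with at least 10 FPKM in every Mongolian library, with 9 other genes, of which 5 carry a symbol; they were named after their values were seen. HSPB1, a small heat shock protein, stood at 179 FPKM in Hu 3 and between 51.5 and 86.6 in Mongolian. MXRA7 stood at 43.7 FPKM in Hu 3 and between 33.6 and 86.9 in Mongolian. CNBP, a nucleic acid binding protein, stood at 26.6 FPKM in Hu 3 and between 22.6 and 28.4 in Mongolian. LAMTOR4, a subunit of the lysosomal Ragulator complex, stood at 13.2 FPKM in Hu 3 and between 11.97 and 18.3 in Mongolian. UBE2H, a ubiquitin-conjugating enzyme, stood at 10.6 FPKM in Hu 3 and between 10.3 and 16.3 in Mongolian. In these 5 the Hu 3 value lay within or above the Mongolian range, as that of IGFBP3 lay within it, whereas in 2 of the 4 genes without a symbol it lay below.

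In the RefSeq annotation of assembly ARS-UI_Ramb_v3.0, used for gene order only, the protein-coding neighbours of IGFBP3 are IGFBP1, not listed by symbol, and TNS3, a focal adhesion protein. TNS3 stood at 5.46, 9.06 and 7.80 FPKM in the Mongolian libraries and at 0, 3.22 and 10.5 in the Hu libraries. IGFBP5 lies next to IGFBP2, which was not listed by symbol, and RPL37A, on the other side of IGFBP2, stood between 101 and 165 FPKM in all 6 libraries. The neighbour of PAPPA, TRIM32, stood at 0.51, 1.91 and 7.06 FPKM in the Mongolian libraries and at 2.09, 0 and 1.22 in the Hu libraries. TRIM32, like PAPPA, was highest in Mongolian 3.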
